A study of Homo sapiens with 18 samples.

Results

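The genes of the elastic fibre were followed across IMR90 ER:RAS cells in 18 bulk RNA libraries. The group holds 10 genes chosen by symbol: elastin (ELN), the fibrillins FBN1 and FBN2, the fibulins FBLN1, FBLN2, FBLN5, EFEMP1 and EFEMP2, and the lysyl oxidases LOX and LOXL1. All 10 were among the 28266 genes of the count table, and all 10 were among the 14341 genes with enough counts to be tested. They held between 0.321% and 0.395% of the counts in control DMSO libraries and between 0.0776% and 0.0907% in senescent DMSO libraries.

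IMR90 cells are human lung fibroblasts, which the study used within a limited range of passages. They carried ER:RAS, oncogenic RAS joined to the part of the oestrogen receptor that binds hormone, brought in by a retrovirus and switched on by 4-hydroxytamoxifen (4OHT), which drives the cells into senescence. All 6 groups, controls included, carried the fusion, although the genotype label reads WT. Senescent cells received 100 nM 4OHT and control cells DMSO, and 7 days later each received DMSO, IMP1088 at 300 nM or, at 1.5 µM, DDD86481 for 3 days before collection on day 10. IMP1088 and DDD86481 inhibit the N-myristoyltransferases, the enzymes that attach the fatty acid myristate to the amino terminus of proteins. Each group had 3 libraries, and library totals ran from 16143716 to 23189950 counts. The study describes its replicates of these treatments as independent experiments, while the labels give a replicate number only. All libraries come from 1 cell line with RAS driven by the fusion, and senescence from other causes was not measured in them.

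Elastic fibres give lung, artery and skin their recoil. Fibroblasts and smooth muscle cells secrete tropoelastin, fibulins help to load it onto a scaffold of fibrillin microfibrils, and lysyl oxidases then join the elastin molecules by covalent cross-links. Most elastin is laid down in development and early life, and the adult lung replaces little of it. In bulk RNA, fewer cells that express a gene and less of its RNA per cell cannot be told apart.

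The labelled cell type was checked against marker genes. All 9 fibroblast markers exceeded 1 CPM (a gene's count relative to the library total, with TMM scaling between libraries) in every library, with sums from 21064 to 27653 CPM in control DMSO, from 27689 to 33259 CPM in control cells with an inhibitor, from 16446 to 16852 CPM in senescent DMSO and from 11460 to 12246 CPM in senescent cells with an inhibitor. The senescent sum was mostly VIM, at 11677 CPM against 5033 CPM in control DMSO, while COL3A1 went from 3700 to 296 CPM, COL1A2 from 7315 to 708 CPM and LUM from 313 to 8.39 CPM. Of 5 smooth muscle markers, 3 exceeded 1 CPM in every library, and their sums were 513 to 611 CPM in control DMSO, 133 to 156 CPM in control cells with an inhibitor, 301 to 338 CPM in senescent DMSO and 140 to 168 CPM in senescent cells with an inhibitor. The control DMSO sum was mostly ACTG2, at 376 CPM in control DMSO and 42.5 CPM in senescent DMSO. CNN1 was at 87.8 and 8.76 CPM. MYH11 and DES were at 4.01 and 12.01 CPM in control DMSO and at 0.14 and 0.16 CPM in senescent DMSO. SMTN of the same list went from 72.9 to 263 CPM. None of 6 epithelial markers exceeded 1 CPM in every library. KRT5, SFTPC and SFTPB had 0 counts throughout, and the epithelial sum of 28.0 to 39.2 CPM in control DMSO, against 0.94 to 7.62 CPM elsewhere, was mostly KRT19. None of 4 endothelial markers (sums of 1.17 to 10.7 CPM) and none of 5 leukocyte markers (sums up to 1.10 CPM) exceeded 1 CPM in every library. The part of these markers in the results below was not tested.

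Promoter sequences are shown for 4 members that the results turn on: FBLN1, the most abundant in control cells; EFEMP2 and LOXL1, the fibulin and the cross-linking enzyme that fell in senescence and with both inhibitors in control cells; and LOX, the member that did not pass the test in senescence. Each is the RefSeq sequence of the 250 bases before the first listed start of the gene on GRCh38.p14, written 5′ to 3′ on the strand of the gene. Capitals mark matches, on either strand, to 5 motifs: the AP-1 site TGANTCA, the GC box GGGCGG, the TATA box TATAAA, the TEAD site GGAATG and the SMAD element CAGACA. ELN and EFEMP1 had no entry.
FBLN1, chr22:45502633-45502882, plus strand: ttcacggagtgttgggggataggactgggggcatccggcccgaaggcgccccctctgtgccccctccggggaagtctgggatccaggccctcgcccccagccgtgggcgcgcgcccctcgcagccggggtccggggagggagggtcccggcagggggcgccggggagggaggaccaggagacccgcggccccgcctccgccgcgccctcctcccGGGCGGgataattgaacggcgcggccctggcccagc
EFEMP2, chr11:65872801-65873050, minus strand: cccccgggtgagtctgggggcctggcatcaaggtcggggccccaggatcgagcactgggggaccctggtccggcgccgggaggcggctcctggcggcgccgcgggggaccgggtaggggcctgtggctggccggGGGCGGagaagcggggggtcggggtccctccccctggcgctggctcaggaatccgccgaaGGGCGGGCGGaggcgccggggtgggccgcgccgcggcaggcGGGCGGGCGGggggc
LOX, chr5:122078260-122078509, minus strand: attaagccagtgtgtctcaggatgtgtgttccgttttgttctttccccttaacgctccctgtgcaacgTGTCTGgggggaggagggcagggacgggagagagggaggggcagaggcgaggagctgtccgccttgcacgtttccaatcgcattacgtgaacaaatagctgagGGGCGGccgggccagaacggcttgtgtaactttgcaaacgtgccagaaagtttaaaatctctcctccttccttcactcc
LOXL1, chr15:73926212-73926461, plus strand: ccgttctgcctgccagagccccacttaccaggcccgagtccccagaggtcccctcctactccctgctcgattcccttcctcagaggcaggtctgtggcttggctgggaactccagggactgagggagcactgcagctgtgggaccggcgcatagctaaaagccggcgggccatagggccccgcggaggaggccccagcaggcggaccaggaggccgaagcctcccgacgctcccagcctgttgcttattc
Among the first listed windows of the 8 members with an entry, the EFEMP2 and FBLN2 windows held 5 GC boxes each and the FBN2 and FBLN5 windows 3 each, and some boxes of EFEMP2, FBLN2 and FBLN5 overlap each other. FBLN1 and LOX had 1, and the FBN1 and LOXL1 windows had 0. Over all 35116 windows of the same length, 42.6% held a GC box. The LOX window also held the SMAD element, found in 13.6% of all windows, and the FBN1 window held the TEAD site, found in 11.9%. No first window held an AP-1 site or a TATA box, which 6.57% and 10.7% of all windows held. GC content was 55.2% for LOX, 66.8% for LOXL1, 77.6% for FBLN1 and 81.6% for EFEMP2, against a median of 58% over all windows. A match describes letters only, and these data do not show which factor binds there.

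The first comparison asked how the group differs between senescent and control cells without an inhibitor. Of the 10 members, 9 were lower in senescent cells and 0 were higher, where 36.0% of all genes tested were lower. The members were chosen with earlier results of these data known, so the share of all genes gives no test of the group. The median log2 fold change was -1.84 over the members and -0.05 over all genes. FBLN1 fell by 114-fold and EFEMP1 by 124-fold, ELN fell to counts near 0, FBLN2 fell by 13.4-fold and the other 5 called members by 2.07-fold to 3.79-fold. Fold changes are on the log2 scale with their standard errors, and each adjusted p is that of edgeR's quasi-likelihood test, adjusted by the Benjamini-Hochberg method over all genes tested.

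ELN (chromosome 7, 73442119 to 73484237, GRCh37, as for all gene positions below) encodes tropoelastin, the soluble precursor of the elastic core. Control DMSO libraries held 783, 591 and 432 counts of it, and senescent DMSO libraries held 2, 3 and 4. No senescent library came near a control library, and 2 of the 3 senescent values were at or under 3 counts, the floor set by what an observed 0 still allows. Over the pooled counts the control level was 145 times the senescent level, with a 95% exact interval of 76.3 to 318 that covers counting error only. The fitted log2 fold change was -7.12 ± 0.36 (adjusted p = 3.44e-12).

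FBN1 (chromosome 15, 48700510 to 48937918) encodes the main fibrillin of microfibrils, and FBN2 (chromosome 5, 127593601 to 127994878) encodes the fibrillin most used in development. FBN1 was at 580, 442 and 191 CPM in control DMSO replicates 1, 2 and 3 and at 191, 236 and 160 CPM in senescent DMSO. The groups overlapped, because control replicate 3 lay within the senescent range while replicates 1 and 2 were well above it. Its log2 fold change was -1.05 ± 0.25 (adjusted p = 0.00101), and it was -1.39 without control replicate 3 and -0.69 without control replicate 1. FBN2 showed the same order, with 185, 143 and 57.7 CPM in control DMSO and 35.2, 47.05 and 31.5 CPM in senescent DMSO. Its groups did not overlap, and the log2 fold change was -1.76 ± 0.27 (adjusted p = 8.52e-06), with -2.11 without control replicate 3 and -1.41 without control replicate 1.

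Control DMSO replicate 3 differed from its group by transcript length across the whole table, which bears on the fibrillins as the longest members. Against the mean of the other 2 control DMSO libraries, its median log2 difference was 0.62 over 723 genes with a canonical transcript under 1 kb and -0.53 over 1107 genes of 8 kb or more. Replicate 1 ran the other way, from -0.46 to 0.43. The deviations of a gene sum to 0 over the group, so this is not independent of the run of replicate 3. FBN1 and FBN2, with transcripts of 11.6 and 10.9 kb, were at -1.41 and -1.49 in replicate 3 and at 1.00 and 1.02 in replicate 1, further from 0 than the median of their length class. In the other groups these long genes had medians between -0.16 and 0.23. The fibrillin values below are therefore also given without control DMSO replicate 3.

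**Figure D1:**
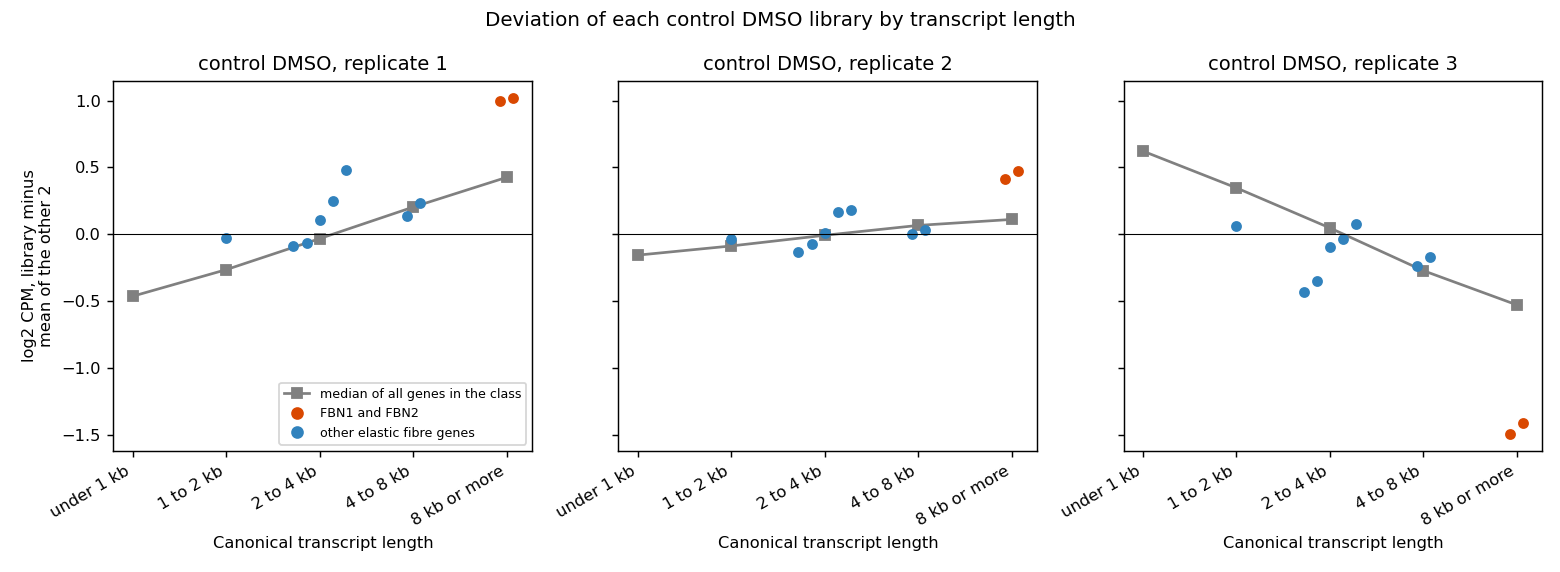
Deviation of each control DMSO library from the mean of the other 2, in log2 CPM (y axis), by canonical transcript length (x axis). Grey squares are medians over all genes of a length class and circles are single elastic fibre genes. In replicate 3 the medians fall from 0.62 to -0.53 with length and FBN1 and FBN2 lie at -1.41 and -1.49.

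The long fibulins FBLN1 (chromosome 22, 45898118 to 45997015) and FBLN2 (chromosome 3, 13590625 to 13679922) encode glycoproteins that bind elastin, fibrillin and the basement membrane. FBLN1 was at 1354, 1507 and 1336 CPM in control DMSO and at 14.2, 11.4 and 11.2 CPM in senescent DMSO. It went from the most abundant member to a low one in every senescent library, with a change of -6.83 ± 0.14 on the log2 scale (adjusted p = 5.55e-19). FBLN2 was at 44.8, 42.7 and 38.9 CPM in control DMSO and at 3.33, 2.86 and 3.19 CPM in senescent DMSO. Its log2 fold change was -3.75 ± 0.15 (adjusted p = 7.21e-15).

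The short fibulins differed widely among themselves. EFEMP1 (chromosome 2, 56093102 to 56151274), which encodes a fibulin of many connective tissues, was at 127, 117 and 120 CPM in control DMSO and at 0.99, 1.37 and 0.60 CPM in senescent DMSO. The senescent values rest on 16, 22 and 11 counts, and the log2 fold change was -6.95 ± 0.17 (adjusted p = 7.99e-18). FBLN5 (chromosome 14, 92335755 to 92414331), whose product tethers elastin to cells and microfibrils, went from 237, 230 and 173 CPM to 67.02, 61.7 and 63.1 CPM. EFEMP2 (chromosome 11, 65633912 to 65641063), whose product brings lysyl oxidase to elastin, went from 365, 364 and 380 CPM to 127, 124 and 140 CPM. In both genes all control libraries were above all senescent libraries, with log2 fold changes of -1.74 ± 0.10 (adjusted p = 7.95e-12) for FBLN5 and -1.50 ± 0.080 (adjusted p = 1.02e-12) for EFEMP2.

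The cross-linking enzymes parted. LOXL1 (chromosome 15, 74218330 to 74244478), a lysyl oxidase needed to renew elastic fibres, was at 382, 400 and 413 CPM in control DMSO and at 100.8, 93.7 and 121 CPM in senescent DMSO. Its log2 fold change was -1.92 ± 0.091 (adjusted p = 1.47e-13). LOX (chromosome 5, 121398890 to 121414108), the founding lysyl oxidase, which cross-links collagen as well as elastin, was at 383, 343 and 307 CPM in control DMSO and at 373, 424 and 340 CPM in senescent DMSO. The groups overlapped, the log2 fold change was 0.14 ± 0.11 with a 95% interval of -0.09 to 0.37 (adjusted p = 0.274), and upper quartile scaling turned it to -0.016 (adjusted p = 0.897). That scaling moved the median of all genes from -0.05 to -0.21, and the 9 other members stayed lower and past the threshold under it.

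**Figure D2:**
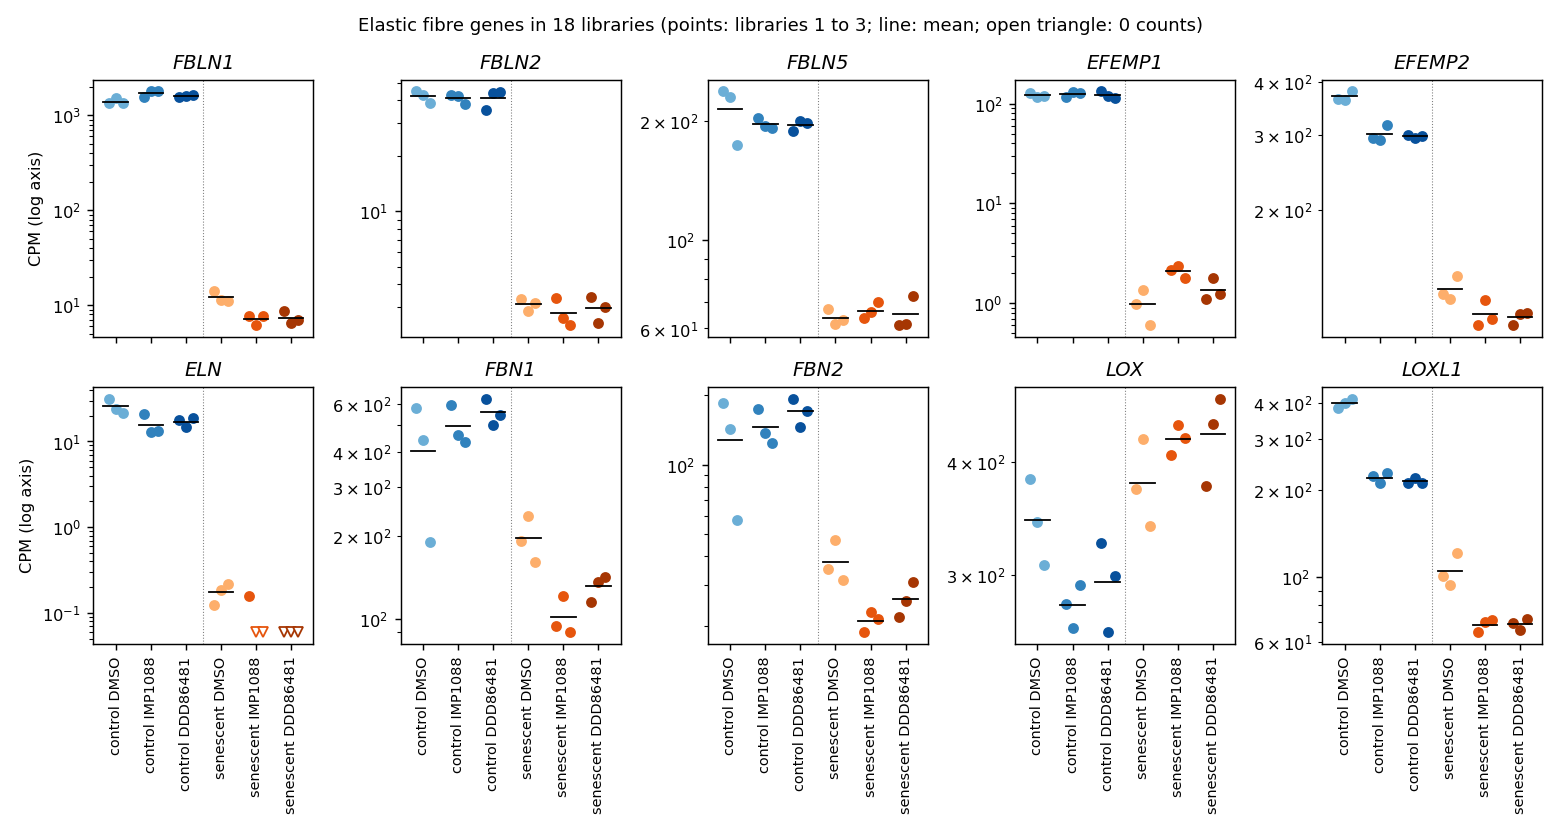
CPM of the 10 elastic fibre genes in 18 libraries on a log axis, by group (3 points per group, in the order of replicates 1 to 3, with the group mean as a line where no library is at 0). ELN, EFEMP1 and FBLN1 separate control from senescent cells most widely, while LOX overlaps between DMSO groups, and open triangles mark libraries with 0 counts of ELN.

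To compare genes with each other, CPM was divided by the length of the canonical transcript in kilobases. In control DMSO the order from the top was FBLN1 at 482 ± 32.3 CPM per kb (SD, n = 3), EFEMP2 at 191 ± 4.63, LOXL1 at 170 ± 6.66, FBLN5 at 81.3 ± 13.3, LOX at 67.9 ± 7.44, EFEMP1 at 44.9 ± 1.93, FBN1 at 34.8 ± 17.0, FBN2 at 11.8 ± 5.92, FBLN2 at 9.78 ± 0.69 and ELN at 7.54 ± 1.55. FBLN1, EFEMP2 and LOXL1 were each separate from the next gene in all 3 libraries. FBLN5 overlapped LOX, and from EFEMP1 down each gene overlapped the next. In senescent DMSO LOX came first with 74.7 ± 8.35 CPM per kb, overlapping EFEMP2 at 67.4 ± 4.41, followed by LOXL1 at 44.8 ± 6.01, FBLN5 at 24.4 ± 1.05 and FBN1 at 16.9 ± 3.26, each separate from the next. FBLN1, now at 4.22 ± 0.58, overlapped FBN2 at 3.47 ± 0.74, and FBLN2, EFEMP1 and ELN followed below 1 CPM per kb.

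The sum over the 10 members went from 1101 ± 53.7 CPM per kb in control DMSO to 237 ± 3.76 in senescent DMSO. FBLN1 made up 43.8% ± 1.85 of that sum in control DMSO and 1.78% ± 0.27 in senescent DMSO. LOX made up 6.16% ± 0.51 and 31.5% ± 3.18, and its share was 39.5% ± 0.36 with IMP1088 and 39.4% ± 1.83 with DDD86481 in senescent cells. These shares move with the length taken for each gene. With all annotated exons in place of the canonical transcript, a choice made after seeing the data, FBLN1 held 35.7% in control DMSO and 1.15% in senescent DMSO, and LOX held 11.4% and 46.2%.

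**Figure D3:**
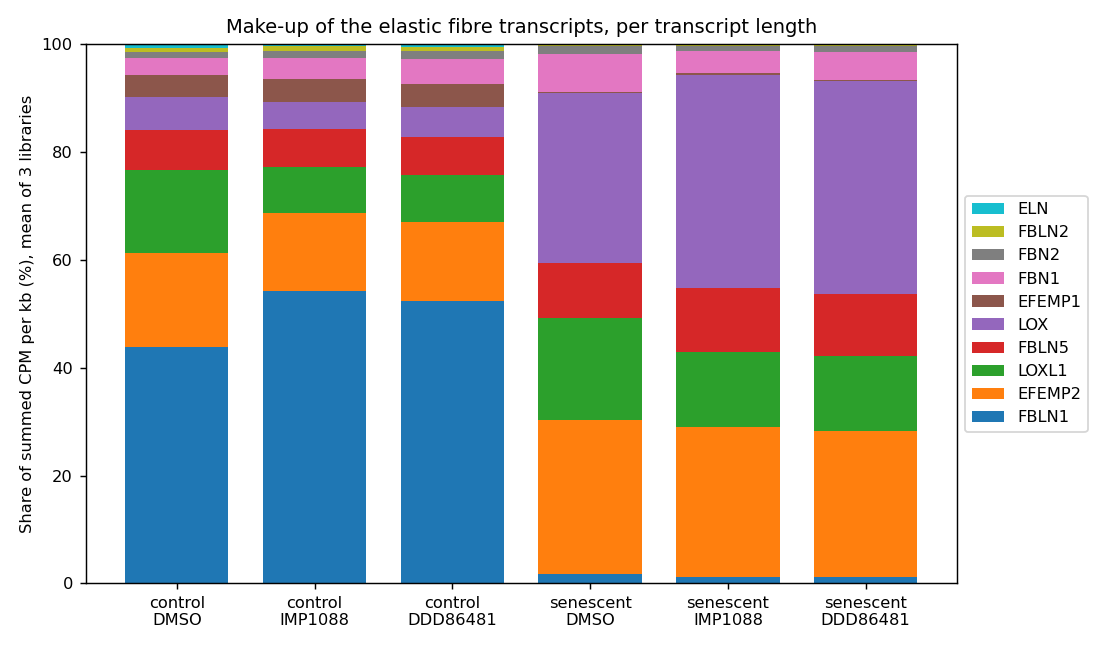
Share of each elastic fibre gene in the summed CPM per kb of the 10 genes (y axis, percent, mean of 3 libraries) in the 6 groups (x axis). FBLN1 takes 43.8% of the control DMSO bar and 1.78% of the senescent DMSO bar, and LOX goes from 6.16% to 31.5%.

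The next comparisons asked what each inhibitor did to the group in senescent cells. Both inhibitors were compared with the same senescent DMSO libraries, and since their doses differed their values are set side by side without a test between them. With IMP1088, 4 of 10 members were lower (FBN1, FBN2, FBLN1 and LOXL1), where 23.9% of all genes tested were lower, and EFEMP1 was higher, where 20.6% of all genes were higher. With DDD86481, 4 members were lower (ELN, FBLN1, EFEMP2 and LOXL1) and 0 were higher, and 23.1% of all genes were lower. The median log2 fold change of the members was -0.40 with IMP1088 and -0.38 with DDD86481, against -0.04 over all genes in both.

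FBLN1 and LOXL1 were the members lower with both inhibitors in every alternative run. FBLN1 was at 7.63, 6.20 and 7.68 CPM with IMP1088 and at 8.62, 6.48 and 7.05 CPM with DDD86481, all below the 11.2 to 14.2 CPM of senescent DMSO. IMP1088 gave a log2 fold change of -0.77 ± 0.13 (adjusted p = 7.1e-05) and DDD86481 of -0.73 ± 0.13 (adjusted p = 0.000137). LOXL1 was at 64.6, 70.3 and 70.9 CPM with IMP1088 and at 69.8, 65.8 and 71.6 CPM with DDD86481, all below the lowest senescent DMSO library at 93.7 CPM. Against DMSO this was -0.61 ± 0.090 on the log2 scale for IMP1088 (adjusted p = 1.37e-05) and -0.61 ± 0.090 for DDD86481 (adjusted p = 1.73e-05). The antisense gene LOXL1-AS1 overlaps 9.21% of the exonic bases of LOXL1 on the opposite strand. It held 3.31% to 6.58% of the LOXL1 count in each library, and reads shared between them could not be assigned here.

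The fibrillins were lower with both inhibitors, and the test was passed with IMP1088. FBN1 was at 94.8, 121 and 89.8 CPM with IMP1088 and at 115, 136 and 142 CPM with DDD86481, below the 160 to 236 CPM of senescent DMSO in every library. Its log2 fold change was -0.94 ± 0.25 with IMP1088 (adjusted p = 0.00486) and -0.58 ± 0.25 with DDD86481 (adjusted p = 0.0705). FBN2 was at 18.7, 22.9 and 21.4 CPM with IMP1088 and at 21.8, 25.5 and 31.0 CPM with DDD86481, also without overlap with senescent DMSO. Its values were -0.85 ± 0.28 (adjusted p = 0.0172) and -0.54 ± 0.28 (adjusted p = 0.122). The FBN2 call with IMP1088 was lost without senescent DMSO replicate 2 (-0.67, adjusted p = 0.0928) and without senescent IMP1088 replicate 1 (-0.78, adjusted p = 0.0646). With DDD86481, a fit of only the compared groups called FBN1 and FBN2 (adjusted p = 0.00266 and 0.0153), as did a fit without a filter on low counts (adjusted p = 0.00174 and 0.00832).

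EFEMP1 was the member that rose. It held 41, 42 and 32 counts with IMP1088, against 16, 22 and 11 with senescent DMSO, and 20, 34 and 20 with DDD86481. In CPM these were 2.16, 2.35 and 1.79 with IMP1088 and 1.09, 1.78 and 1.23 with DDD86481, all under the control DMSO level of 121 ± 5.23 CPM. The IMP1088 libraries lay above all senescent DMSO libraries, and the change was 1.10 ± 0.24 on the log2 scale (adjusted p = 0.000725). The DDD86481 libraries overlapped them, with 0.49 ± 0.26 (adjusted p = 0.127), which became 0.80 (adjusted p = 0.0291) without senescent DMSO replicate 2.

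EFEMP2 was at 108, 123 and 111 CPM with IMP1088 and at 108, 114 and 115 CPM with DDD86481, below the lowest senescent DMSO library at 124 CPM. On the log2 scale the change was -0.19 ± 0.079 with IMP1088 (adjusted p = 0.0509) and -0.22 ± 0.079 with DDD86481 (adjusted p = 0.0314). The EFEMP2 call with DDD86481 was lost without senescent DMSO replicate 1 (-0.24, adjusted p = 0.0508) or 3 (-0.16, adjusted p = 0.141), or without senescent DDD86481 replicate 1 (-0.19, adjusted p = 0.0943) or 2 (-0.23, adjusted p = 0.0528). With IMP1088 it passed without senescent DMSO replicate 2 (-0.23, adjusted p = 0.0488) or senescent IMP1088 replicate 2 (-0.26, adjusted p = 0.0275) and with the replicate number as a block (-0.19, adjusted p = 0.0464).

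FBLN5 lay between 61.2 and 72.4 CPM and FBLN2 between 2.41 and 3.44 CPM over the inhibitor libraries, overlapping senescent DMSO. Log2 fold changes of FBLN5 were 0.06 ± 0.10 with IMP1088 and 0.03 ± 0.10 with DDD86481, and those of FBLN2 were -0.16 ± 0.17 and -0.08 ± 0.17, none past the threshold. LOX was at 407, 439 and 425 CPM with IMP1088 and at 376, 440 and 470 CPM with DDD86481, overlapping the 340 to 424 CPM of senescent DMSO. IMP1088 gave a log2 fold change of 0.16 ± 0.11 (adjusted p = 0.246) and DDD86481 of 0.18 ± 0.11 (adjusted p = 0.2). ELN held 3, 0 and 0 counts with IMP1088 and 0, 0 and 0 with DDD86481. Nearly all ELN values in senescent cells were at or under the floor of 3 counts, so no fold change is given, and the ELN call with DDD86481 (adjusted p = 0.0264) was lost without any 1 of the 3 senescent DDD86481 libraries or without senescent DMSO replicate 3 (adjusted p = 0.0539 to 0.0668). With IMP1088 the adjusted p of ELN was 0.235, and it was 0.045 without senescent IMP1088 replicate 1.

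In control cells the inhibitors were compared with control DMSO, which again served both. With IMP1088, 4 members were lower (ELN, EFEMP2, LOX and LOXL1), where 17.4% of all genes were lower, and FBLN1 was higher, where 16.3% of all genes were higher. With DDD86481, 3 members were lower (ELN, EFEMP2 and LOXL1) and 0 were higher, and 18.7% of all genes were lower. The median log2 fold change of the members was -0.08 with either inhibitor.

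LOXL1 showed the largest of these changes. It was at 223, 211 and 228 CPM with IMP1088 and at 211, 219 and 212 CPM with DDD86481, all far below the control DMSO range of 382 to 413 CPM. The falls were 1.80-fold with IMP1088 (log2 fold change -0.85 ± 0.088, adjusted p = 4.76e-07) and 1.86-fold with DDD86481 (-0.90 ± 0.088, adjusted p = 2.62e-07). EFEMP2 fell to 295, 292 and 317 CPM with IMP1088 and to 299, 295 and 299 CPM with DDD86481, from 364 to 380 CPM. Against DMSO this was -0.29 ± 0.078 on the log2 scale for IMP1088 (adjusted p = 0.00632) and -0.31 ± 0.078 for DDD86481 (adjusted p = 0.00402). Without the senescent libraries in the fit, the adjusted p of EFEMP2 was 0.0601 with IMP1088 and 0.0508 with DDD86481.

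ELN held 415, 286 and 270 counts with IMP1088 and 340, 263 and 397 counts with DDD86481. In CPM these were 20.8, 12.7 and 13.1 with IMP1088 and 17.7, 14.7 and 18.5 with DDD86481, all below the control DMSO range of 21.5 to 31.5 CPM. On the log2 scale the change was -0.72 ± 0.20 with IMP1088 (adjusted p = 0.00919) and -0.59 ± 0.20 with DDD86481 (adjusted p = 0.0261). The ELN call with IMP1088 was lost without control IMP1088 replicate 2 (-0.59, adjusted p = 0.0567) or 3 (-0.60, adjusted p = 0.0551), and with only the groups compared (-0.72, adjusted p = 0.0543). With DDD86481 it was lost without control DMSO replicate 1 (-0.41, adjusted p = 0.102) and without control DDD86481 replicate 1 (-0.61, adjusted p = 0.0626) or 2 (-0.50, adjusted p = 0.1).

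LOX was at 279, 262 and 292 CPM with IMP1088 and at 325, 259 and 299 CPM with DDD86481, against 307 to 383 CPM in control DMSO. The IMP1088 libraries lay below and the DDD86481 libraries overlapped control DMSO. IMP1088 gave a log2 fold change of -0.31 ± 0.11 (adjusted p = 0.0334) and DDD86481 of -0.23 ± 0.11 (adjusted p = 0.111). The LOX call with IMP1088 was lost when any of 5 libraries was left out: control DMSO replicate 1 (-0.23, adjusted p = 0.116) or 2 (-0.31, adjusted p = 0.0778), or control IMP1088 replicate 1 (-0.31, adjusted p = 0.0853), 2 (-0.27, adjusted p = 0.124) or 3 (-0.34, adjusted p = 0.0542). It was also lost with only the groups compared (-0.31, adjusted p = 0.0873). With DDD86481, LOX passed without control DMSO replicate 3 (-0.30, adjusted p = 0.0391) and with upper quartile scaling (-0.29, adjusted p = 0.0372).

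FBLN1 was at 1550, 1788 and 1789 CPM with IMP1088 and at 1553, 1608 and 1646 CPM with DDD86481, all above the highest control DMSO library at 1507 CPM. Against DMSO this was 0.29 ± 0.11 on the log2 scale for IMP1088 (adjusted p = 0.0404) and 0.20 ± 0.11 for DDD86481 (adjusted p = 0.154). The FBLN1 call with IMP1088 was lost without control DMSO replicate 1 (0.27, adjusted p = 0.0687) or 3 (0.26, adjusted p = 0.0722), without control IMP1088 replicate 2 (0.26, adjusted p = 0.116) or 3 (0.27, adjusted p = 0.107), with upper quartile scaling (0.24, adjusted p = 0.0881) and with only the groups compared (0.29, adjusted p = 0.11).

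The fibrillins did not pass the test in control cells, and their direction with IMP1088 depended on control DMSO replicate 3. FBN1 was at 592, 462 and 437 CPM with IMP1088 and at 625, 503 and 546 CPM with DDD86481, within or above the control DMSO range of 191 to 580 CPM. On the log2 scale the change was 0.30 ± 0.25 with IMP1088 (adjusted p = 0.376) and 0.46 ± 0.25 with DDD86481 (adjusted p = 0.151). Without control DMSO replicate 3 the value of FBN1 with IMP1088 was -0.040 (adjusted p = 0.884), and without replicate 1 it was 0.65 (adjusted p = 0.029) with IMP1088 and 0.82 (adjusted p = 0.00719) with DDD86481. With no filter on low counts FBN1 passed with DDD86481 (0.46, adjusted p = 0.0173). FBN2 had log2 fold changes of 0.17 ± 0.26 (adjusted p = 0.636) and 0.40 ± 0.26 (adjusted p = 0.231), and -0.17 (adjusted p = 0.461) with IMP1088 without control DMSO replicate 3. With DDD86481, FBN2 was at 0.76 (adjusted p = 0.0162) without control DMSO replicate 1. Without control DMSO replicate 3, the DDD86481 values were 0.13 (adjusted p = 0.597) for FBN1 and 0.055 (adjusted p = 0.837) for FBN2.

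FBLN5, FBLN2 and EFEMP1 did not pass the test in control cells and overlapped control DMSO with both inhibitors. FBLN5 was at 192 to 203 CPM with IMP1088 and at 188 to 200 CPM with DDD86481, with log2 fold changes of -0.12 ± 0.10 and -0.13 ± 0.10. Without control DMSO replicate 3, the lowest FBLN5 library of its group, these became -0.25 (adjusted p = 0.0244) and -0.26 (adjusted p = 0.0199). FBLN2 was at 35.7 to 44.3 CPM and EFEMP1 at 115 to 133 CPM over the 6 libraries with an inhibitor. FBLN2 had log2 fold changes of -0.03 ± 0.12 with both inhibitors, and EFEMP1 had 0.04 ± 0.11 and 0.01 ± 0.11.

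**Figure D4:**
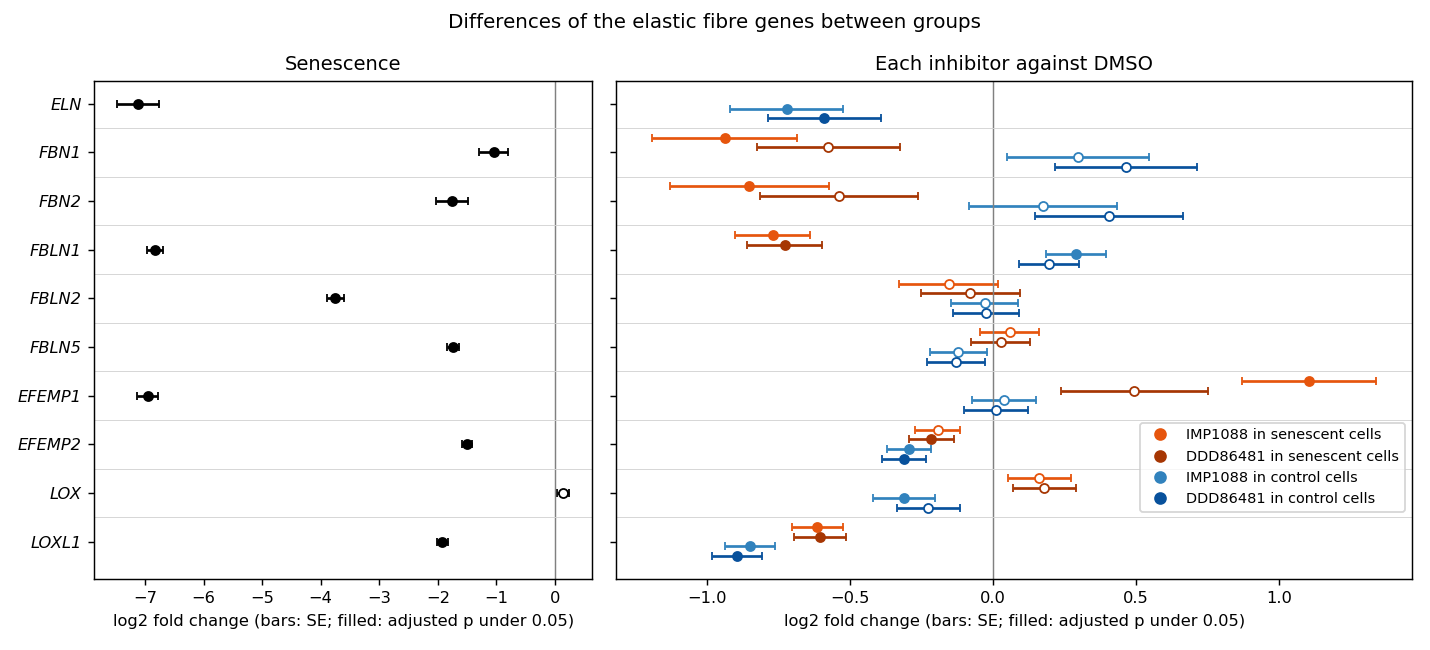
Log2 fold changes of the 10 genes (x axis, bars are standard errors) in senescent against control cells with DMSO (left) and with each inhibitor against DMSO (right), filled where the adjusted p was under 0.05. LOXL1 was lower with both inhibitors in both states, FBLN1 lay on opposite sides of 0 in senescent and control cells, and ELN is left out of the right panel for senescent cells, where nearly all counts were at or under the floor.

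An interaction term asked whether the effect of an inhibitor differed between senescent and control cells. For IMP1088, 2 members had a lower effect in senescent cells (FBN1 and FBLN1), where 14.2% of all genes did, and 2 had a higher effect (EFEMP1 and LOX), where 12.1% did. For DDD86481, FBN1 and FBLN1 had a lower effect, where 15.9% of all genes did, and 0 had a higher one. The difference in log2 fold change, senescent minus control, was -1.06 ± 0.17 for FBLN1 with IMP1088 (adjusted p = 0.000142) and -0.93 ± 0.17 with DDD86481 (adjusted p = 0.000504). FBLN1 was past the threshold in both under every alternative run.

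FBN1 had interaction values of -1.24 ± 0.35 with IMP1088 (adjusted p = 0.0146) and -1.04 ± 0.35 with DDD86481 (adjusted p = 0.0316). The IMP1088 call of FBN1 was lost without control IMP1088 replicate 1 (-1.06, adjusted p = 0.0538). The DDD86481 call of FBN1 was lost without control DDD86481 replicate 1 (-0.91, adjusted p = 0.0857) or 3 (-1.02, adjusted p = 0.0606), without senescent DDD86481 replicate 1 (-0.96, adjusted p = 0.0778) or 2 (-1.07, adjusted p = 0.0525), without senescent DMSO replicate 1 (-1.06, adjusted p = 0.0528) or 2 (-0.89, adjusted p = 0.0885), and with only the groups compared (-0.997, adjusted p = 0.0712). Without control DMSO replicate 3 the values of FBN1 were -0.90 (adjusted p = 0.00426) and -0.70 (adjusted p = 0.02). FBN2 had values of -1.03 ± 0.38 (adjusted p = 0.0513) and -0.95 ± 0.38 (adjusted p = 0.0634), so neither passed. With IMP1088, FBN2 passed with no filter on low counts (-1.03, adjusted p = 0.000511), with the replicate number as a block (-1.06, adjusted p = 0.0442), without control DMSO replicate 1 (-1.38, adjusted p = 0.00339) or 3 (-0.68, adjusted p = 0.0367), and without senescent DMSO replicate 3 (-1.15, adjusted p = 0.0498). With DDD86481, FBN2 passed with no filter (-0.95, adjusted p = 0.00121), without control DMSO replicate 1 (-1.30, adjusted p = 0.00448) and without senescent DDD86481 replicate 3 (-1.09, adjusted p = 0.0483), and its value without control DMSO replicate 3 was -0.60 (adjusted p = 0.059).

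EFEMP1 had an interaction value of 1.07 ± 0.26 with IMP1088 (adjusted p = 0.0057) and 0.48 ± 0.28 with DDD86481 (adjusted p = 0.195). LOX had 0.47 ± 0.15 with IMP1088 (adjusted p = 0.0296) and 0.40 ± 0.15 with DDD86481 (adjusted p = 0.0535). The LOX call with IMP1088 was lost without control DMSO replicate 1 (0.39, adjusted p = 0.0518), control IMP1088 replicate 2 (0.47, adjusted p = 0.0529), senescent DMSO replicate 1 (0.46, adjusted p = 0.0627) or 3 (0.40, adjusted p = 0.0793), or senescent IMP1088 replicate 2 (0.45, adjusted p = 0.0678) or 3 (0.47, adjusted p = 0.055). With DDD86481, LOX passed with DESeq2 (adjusted p = 0.0426), with upper quartile scaling (adjusted p = 0.0276), and without control DDD86481 replicate 1 (adjusted p = 0.0264), control DMSO replicate 3 (adjusted p = 0.0186), senescent DDD86481 replicate 1 (adjusted p = 0.0266) or senescent DMSO replicate 2 (adjusted p = 0.0325). LOXL1 fell in both states and had interaction values of 0.24 ± 0.12 (adjusted p = 0.168) and 0.29 ± 0.13 (adjusted p = 0.0845), which passed in both without senescent DMSO replicate 3 (adjusted p = 0.0346 and 0.0157), and with DDD86481 also with upper quartile scaling (adjusted p = 0.0413).

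The other members did not pass the interaction test with either inhibitor. FBLN5 had values of 0.18 ± 0.14 with IMP1088 (adjusted p = 0.378) and 0.16 ± 0.14 with DDD86481 (adjusted p = 0.435), and EFEMP2 had 0.10 ± 0.11 (adjusted p = 0.531) and 0.09 ± 0.11 (adjusted p = 0.545). FBLN2 had -0.13 ± 0.21 (adjusted p = 0.69) and -0.05 ± 0.21 (adjusted p = 0.873). For ELN no value is given, since its senescent counts were at or near the floor (adjusted p = 0.565 and 0.0702).

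Genes whose products build on, cross-link, cleave or sense elastic fibres were taken from lists. The counts stand beside 36.0% of all genes lower and 32.5% higher in senescent cells. The lists were also chosen with earlier results of these data known, so these shares give no test of a list. Of 12 tested microfibril and elastin partners, 11 were lower in senescent cells and 1 was higher, with a median log2 fold change of -1.13. DCN, which encodes the collagen-binding proteoglycan decorin, went from 3041 to 7.72 CPM (-8.62 ± 0.13, adjusted p = 3.72e-21). TNXB, encoding tenascin X, fell from 179, 124 and 31 counts to 1, 2 and 2, a ratio of 48.3 with a 95% exact interval of 20.5 to 150. Of the 4 genes named as latent TGF-beta binding proteins, LTBP4 (-3.08 ± 0.14, adjusted p = 4.85e-14) and 2 others were lower, and LTBP2 was higher (1.04 ± 0.22, adjusted p = 0.000258). Of 8 genes in the list of other lysyl oxidases and their activation, which also holds genes outside both, 4 were lower and 2 higher. Its lysyl oxidases split. LOXL2 was higher (0.69 ± 0.13, adjusted p = 6.85e-05). LOXL3 (-1.37 ± 0.12, adjusted p = 1.56e-09) and LOXL4 (-0.63 ± 0.12, adjusted p = 8.67e-05) were lower. POSTN of the same list, encoding periostin, fell by 2.01 ± 0.12 on the log2 scale (adjusted p = 1.27e-11). Of 10 genes of the fibrillin-binding ADAMTS family, 5 were lower and 3 higher.

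The enzymes that degrade elastin and their inhibitors stood on the other side. Of 15 tested, 10 were higher in senescent cells, where 32.5% of all genes were, and 4 were lower, with a median log2 fold change of 2.21, which was the same with genes at the floor set to their bound. MMP7, encoding the elastin-degrading metalloproteinase matrilysin, had 0 counts in each control DMSO library and 313, 334 and 356 in senescent DMSO, at least 153-fold higher against the floor of 3 counts per library. PI3, encoding elafin, an inhibitor of neutrophil elastase, went from 0, 5 and 1 counts to 4128, 3558 and 4624 counts, a ratio of 2836 with a 95% exact interval of 1303 to 7730. The list holds enzymes and inhibitors that act against each other, so its count gives no net direction of degradation. Of 8 genes of the elastin receptor complex and elastin-binding or fibronectin-binding integrins, 7 were higher and 1 lower, with a median of 1.42. ITGA5, an integrin subunit for fibronectin, rose by 2.07 ± 0.11 (adjusted p = 1.55e-12).

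**Figure D5:**
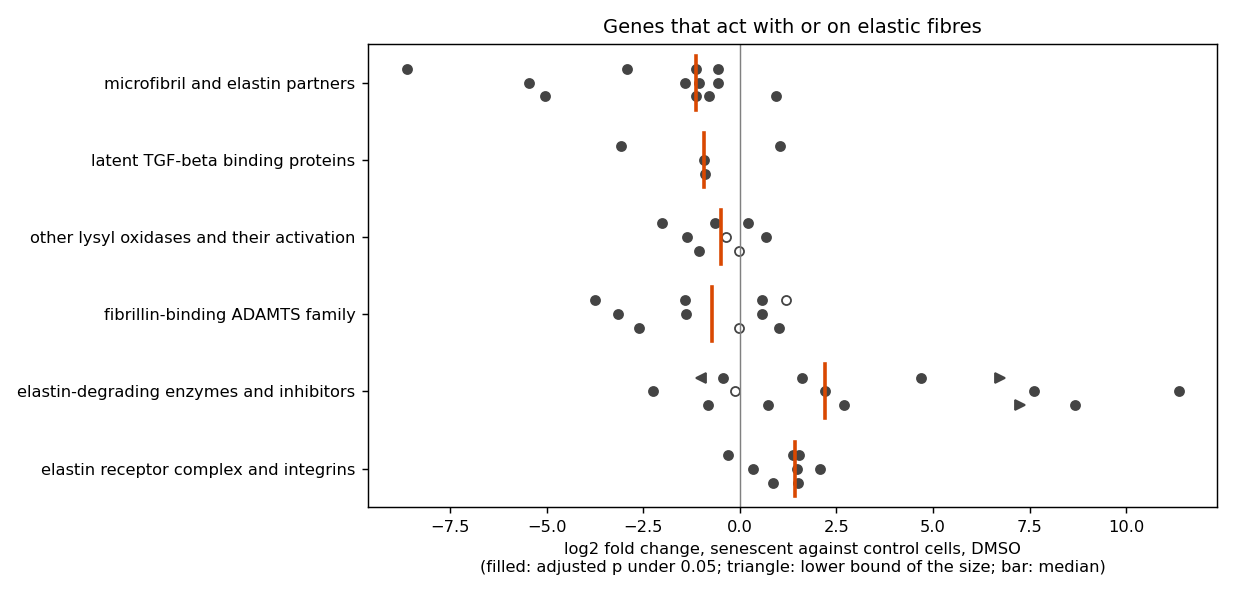
Log2 fold changes in senescent against control cells with DMSO (x axis) for genes of 6 lists (rows). Each point is a gene, filled where the adjusted p was under 0.05, triangles are lower bounds of the size for genes at 0 counts in 1 group, and bars are list medians, which run from -1.13 for microfibril and elastin partners to 2.21 for elastin-degrading enzymes and inhibitors.

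With the inhibitors the same lists split in both directions. Of all genes tested in senescent cells, 23.9% were lower and 20.6% higher with IMP1088, and 23.1% lower and 20.1% higher with DDD86481. In control cells these shares were 17.4% and 16.3% with IMP1088 and 18.7% and 17.8% with DDD86481, and several list counts lie near them. In senescent cells, 4 of the 12 microfibril and elastin partners were lower with IMP1088 and 6 with DDD86481, with 1 and 2 higher, and VCAN, encoding the proteoglycan versican, had log2 fold changes of -2.04 ± 0.26 and -1.97 ± 0.26. In control cells 1 and 2 were lower and 4 and 5 were higher, with MFAP4, encoding a microfibril-associated protein, at 0.78 ± 0.11 with IMP1088. TNXB was among those higher with both inhibitors, and control DMSO replicate 3 held 31 counts of it against 179 and 124 in replicates 1 and 2. None of the list counts was refitted without control DMSO replicate 3. Among latent TGF-beta binding proteins, LTBP1 was the 1 called in senescent cells (-0.78 ± 0.13 and -0.70 ± 0.13) and LTBP4 the 1 called in control cells (0.64 ± 0.12 and 0.65 ± 0.12). In the lysyl oxidase list 4 of 8 were lower and 1 higher with either inhibitor in senescent cells, against 3 lower and 2 higher in control cells. POSTN was lower in all 4 comparisons, by 0.98 to 1.09 on the log2 scale, but it is no lysyl oxidase, and its product binds the enzyme that activates them. Of 10 ADAMTS family genes, 1 was higher in each comparison, 3 were lower with either inhibitor in senescent cells and with IMP1088 in control cells, and 2 with DDD86481 in control cells.

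Of 15 elastin-degrading enzymes and inhibitors, 3 were higher and 6 lower with either inhibitor in senescent cells, while 4 were higher with IMP1088 and 6 with DDD86481 in control cells, with 2 lower in each. TIMP3, encoding an inhibitor of metalloproteinases that is bound to the matrix, had log2 fold changes of -1.94 ± 0.13 and -1.84 ± 0.13 in senescent cells, and PI3 had 1.42 ± 0.13 and 1.47 ± 0.13. Of the 8 receptor and integrin genes, 4 were lower with IMP1088 and 3 with DDD86481 in senescent cells, with 2 and 1 higher, and in control cells 3 were higher and 1 lower with each. NEU1, encoding the lysosomal sialidase of the elastin receptor complex, was higher in all 4 comparisons, with log2 fold changes from 1.05 to 1.14. The medians of the 6 lists over the 4 comparisons lay between -0.40 and 0.27, beside medians of all genes between -0.04 and 0.

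Called interactions with IMP1088 were negative for 5 of 12 microfibril and elastin partners and 2 of 4 latent TGF-beta binding proteins. The same held for 3 of 8 genes of the lysyl oxidase list, most of which are not lysyl oxidases, and 2 of 10 ADAMTS family genes. For elastin-degrading enzymes and inhibitors the count was 4 of 15, and for receptor and integrin genes 4 of 8. With DDD86481 these counts were 7, 2, 3, 4, 5 and 4. Called positive values numbered 1, 0, 1, 0, 2 and 0 with IMP1088 and 1, 0, 0, 0, 3 and 0 with DDD86481. Of all genes tested, 14.2% had a called negative and 12.1% a called positive value with IMP1088, and 15.9% and 14.4% with DDD86481. Counts such as 2 of 10 lie near the share of all genes. These list counts were also not refitted without control DMSO replicate 3, which enters both interactions.

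Lastly, the patterns of the members over the 6 group means of log2 CPM, each centred on its own mean, were compared by root mean square distance. Among the members ELN lay closest to FBLN1 (0.48 log2 units), and FBN1 closest to FBN2 (0.31). The closest pair of members was FBLN5 and EFEMP2 (0.14). Over 12742 genes with a mean of at least 1 CPM, the 3 genes nearest to ELN were SLC7A14 (0.22), ADAMTS8 (0.25) and ABCA8 (0.31), and those nearest to FBLN1 were C7 (0.24), TOX (0.24) and PODN (0.33). FBN1 had closer neighbours, TRIO (0.07) and CREBBP (0.07), as did LOX, with CCZ1 (0.03), EMC8 (0.04) and SIL1 (0.04). LOXL1 was nearest to NCAPG2 (0.10), FAXC (0.11) and TONSL-AS1 (0.11). These distances describe 6 group means that share libraries and depth, and they were not tested. They also depend on how far a gene moves between groups, so those of LOX and ELN are not on a par. The ELN means in senescent cells rest on counts near 0. The control DMSO means of FBN1 and FBN2 include replicate 3, where both were low. The part of transcript length in these distances was not tested.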

How the data were processed

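Poly(A) RNA of 18 libraries of IMR90 ER:RAS cells, 3 in each of 6 groups, was sequenced by the authors. They deposited 1 table of raw counts per gene, whose columns name DDD86481 as PCLX001. The study's methods and the submitters' processing notes name different aligners and genome builds (the notes list hg38, DRAGEN, STAR 2.7.8a and DESeq2 1.32.0), and which of them made the table, and with which strand setting, is not given in the sources used here. Reads of overlapping or antisense genes may therefore be shared.

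Groups were taken from the labels. Counts were tested with edgeR 4.0.16 in R 4.3.3 by its quasi-likelihood test after TMM scaling and filterByExpr, which kept 14341 of 28266 genes, in 1 fit of all libraries without a replicate term. P-values were adjusted by Benjamini-Hochberg over all genes tested, with a threshold of 0.05. Library totals lay between 16143716 and 23189950, so that 3 counts, the floor, equal 0.121 to 0.187 CPM in 1 library. Exact intervals and floors cover counting error only, since no molecular identifiers were used.

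Alternatives were DESeq2 1.42.0, upper quartile scaling, no filter, only the groups compared, a replicate block and leaving out each library. Same-numbered libraries of control IMP1088 and control DMSO deviated together (r of 0.394, 0.123 and 0.231), which was read as possible pairing for that comparison. The other compared groups had at least 1 pair under 0.1. Replicates 1 and 3 of control IMP1088 also shifted with transcript length in the direction of those of control DMSO. Their medians ran from -0.16 to 0.14 and from 0.098 to -0.069, and the part of length in r was not tested. Gene positions and canonical transcript lengths came from GENCODE v44 mapped to GRCh37 and promoters from RefSeq. The members and gene lists were chosen with earlier results of these data known. All members are named in every comparison, and from each list at most the 2 called genes with the largest change per comparison, except that all lysyl oxidases of their list are named for senescence. An item withheld from the text is not reported here.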

Additional observations from a re-analysis of the deposited data

Results flagged for a closer look

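The effect of an inhibitor differed between senescent and control cells, by the interaction term of edgeR's quasi-likelihood test, for 4 elastic fibre genes. With IMP1088 the difference in log2 fold change, senescent minus control, was -1.24 ± 0.35 for FBN1 (adjusted p = 0.0146), -1.06 ± 0.17 for FBLN1 (adjusted p = 0.000142), 1.07 ± 0.26 for EFEMP1 (adjusted p = 0.0057) and 0.47 ± 0.15 for LOX (adjusted p = 0.0296). With DDD86481 it was -1.04 ± 0.35 for FBN1 (adjusted p = 0.0316) and -0.93 ± 0.17 for FBLN1 (adjusted p = 0.000504). Of all genes tested, 14.2% had a called negative and 12.1% a called positive value with IMP1088, and 15.9% and 14.4% with DDD86481. Counts of 2 of 10 members in 1 direction lie near these shares. Leaving out 1 library at a time ended the call of LOX with IMP1088 in 6 of 12 cases (adjusted p up to 0.0793), of FBN1 with DDD86481 in 6 of 12 (up to 0.0885) and of FBN1 with IMP1088 without control IMP1088 replicate 1 (0.0538). Both inhibitors were compared with the same DMSO libraries, so these values are not independent. Control DMSO replicate 3, which enters both interactions, held 191 CPM of FBN1 against 442 and 580 CPM in the other 2 control DMSO libraries. Without it the FBN1 values were -0.90 with IMP1088 (adjusted p = 0.00426) and -0.70 with DDD86481 (adjusted p = 0.02).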

How the results depend on the processing

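The 9 members lower in senescence were called under every alternative run. With DDD86481, the interaction called 2 members, and 4 with DESeq2, 4 with upper quartile scaling and 4 with no filter. How many of all genes these alternatives called is not given, so the change from 2 to 4 is no result about the members. With only the groups compared, IMP1088 in control cells called 2716 of all genes and 1 member (against 4829 and 5), and DDD86481 in control cells called 2842 of all genes (against 5242). Upper quartile scaling turned LOX in senescence to -0.016, and EFEMP1 in control cells to -0.014 with IMP1088 and -0.053 with DDD86481, none of them past the threshold in either fit.

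Leaving out 1 library at a time gave 1 to 4 members called for the DDD86481 interaction, 2 to 5 for DDD86481 in senescent cells, 2 to 5 for IMP1088 in control cells and 2 to 5 for DDD86481 in control cells. The shares of all genes called in these fits are not given, so these counts are no result about the members. No value that took the opposite sign was past the threshold. In control cells with IMP1088 the values ran from -0.040 to 0.65 for FBN1 (called at 0.65, without control DMSO replicate 1), from -0.17 to 0.53 for FBN2 and from -0.084 to 0.031 for FBLN2. In control cells with DDD86481 they ran from -0.080 to 0.078 for FBLN2 and from -0.044 to 0.062 for EFEMP1. In senescent cells with DDD86481 they ran from -0.20 to 0.046 for FBLN2 and from -0.056 to 0.069 for FBLN5, and for the DDD86481 interaction of FBLN2 from -0.18 to 0.071. The cause was not tested.

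The replicate block changed 3 calls among the members, all to called: EFEMP2 with IMP1088 in senescent cells (-0.19, adjusted p = 0.0464), FBN2 in the IMP1088 interaction (-1.06, adjusted p = 0.0442) and ELN in the DDD86481 interaction (-4.28, adjusted p = 0.0373), where ELN rests on counts at the floor. It changed no call for IMP1088 in control cells. Depth limits ELN in senescent cells, where 4 of 9 libraries held 2 to 4 counts and 5 held 0.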
